A study of Rattus norvegicus with 6 samples.

Results

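Cell cycle and DNA replication genes were examined in neonatal rat ventricular cardiomyocytes (NRVCs) cultured with or without C3a, the anaphylatoxin fragment of complement C3. A list of 37 genes was chosen by known function in 6 roles: the G1 cyclins and their kinases, the G1/S switch, the CDK inhibitors, DNA replication, the cyclins of S, G2 and M phase with Cdk1, and mitosis with markers of proliferation. Of these, 35 had a named probe among the 16581 genes named on the array, and 34 had a probe bright enough to test among 10390 such genes. Mcm5 and Top2a had no named probe. Aurkb cleared background on 4 of 6 arrays, 2 per group, and its values are given without a test.

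The cells came from the ventricles of 8 to 10 Sprague-Dawley rats aged 1 to 2 days, so that each culture pooled several hearts, and they were preplated before seeding on collagen. The C3a group received recombinant C3a at 0.5 µg/ml for 12 h, and the Control group stayed in control medium. The labels give a serum-free culture medium for both groups, and the methods of the study describe a short starvation in low serum before stimulation. Total RNA (0.1 µg) was labelled with Cy3 and hybridised to 3 one-colour arrays per group. The labels do not say whether the 3 samples of a group were separate cultures or isolations, so p-values measure the spread between these samples, which may be technical. In RNA from a whole culture, fewer cells of a type and less RNA per cell cannot be told apart.

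All 6 arrays lay on 1 slide and were scanned together, with the Control arrays along one side and the C3a arrays along the other, so that slide side and treatment cannot be told apart. Arrays with the same replicate number also shared a position along the slide. The 75th percentile of intensity ranged from 207.1 to 367.3 and no spot was saturated. Control replicate 1 stood apart, with a median local background of 47 against 23 to 24 elsewhere and 38.6% of probes well above background against 53.7% to 57.3%. Across all 23438 probes tested, limma with Benjamini-Hochberg adjustment called 0 higher and 0 lower with C3a (smallest adjusted p = 0.704), and 786 higher and 587 lower had an unadjusted p under 0.05. All 12 cardiomyocyte markers listed were measured on all 6 arrays, including Tnnt2, Myh6 and Actn2, and so were the fibroblast markers Col1a1 and Col1a2.

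In the cell cycle, D-type cyclins with Cdk4 or Cdk6 and then cyclin E with Cdk2 phosphorylate the retinoblastoma protein, which releases E2F factors that switch on genes for DNA synthesis. Cyclin A, cyclin B and Cdk1 drive the later phases, and inhibitors of the CIP/KIP and INK4 families restrain the kinases. Rat ventricular myocytes leave the cell cycle soon after birth, while fibroblasts and endothelial cells in such cultures can go on dividing.

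None of the cell cycle genes passed the test. Limma called 0 of 34 at an adjusted p under 0.05, against 0% of all genes tested, with adjusted p between 0.745 and 0.991. At an unadjusted p under 0.05 it listed 0 of 34 against 5.38% of all genes (0 higher against 2.92%, and 0 lower against 2.46%), and the methods' test listed 0 of 34 against 4.94% (0 higher against 3.33%, and 0 lower against 1.61%). The replicate numbers paired the arrays, and with the number as a block 3 of 34 had an unadjusted p under 0.05, against 11.8% of all genes: Cdkn1b on the higher side (1 of 34, against 5.78%), and Rb1 and Mcm6 on the lower side (2 of 34, against 6.06%). With the block 0 of 34 passed adjustment, the adjusted p lying between 0.296 and 0.984.

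Levels are given as the log2 signal of a gene's brightest probe after subtraction of the array's 75th percentile, and changes as the difference of group means, C3a minus Control, in log2 units ± SE with n = 3 per group. The changes were small: 25 of 34 genes moved by less than 0.1, a size shared by 47.9% of all genes, and 2 moved by more than 0.5, against 2.72%. The median change was -0.007 for the list and 0.04 for all genes, and 15 of 34 changes lay above 0, against 60.5%. With no filter on dim probes the order of the medians turned, to -0.008 for the list and -0.04 for all genes. The 95% interval held 0 for all 34. For 27 of them the whole interval lay within 0.5 of 0, which corresponds to 1.41-fold in either direction, and the half-widths ran from 0.21 to 0.75 with a median of 0.26.

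**Figure D1:**
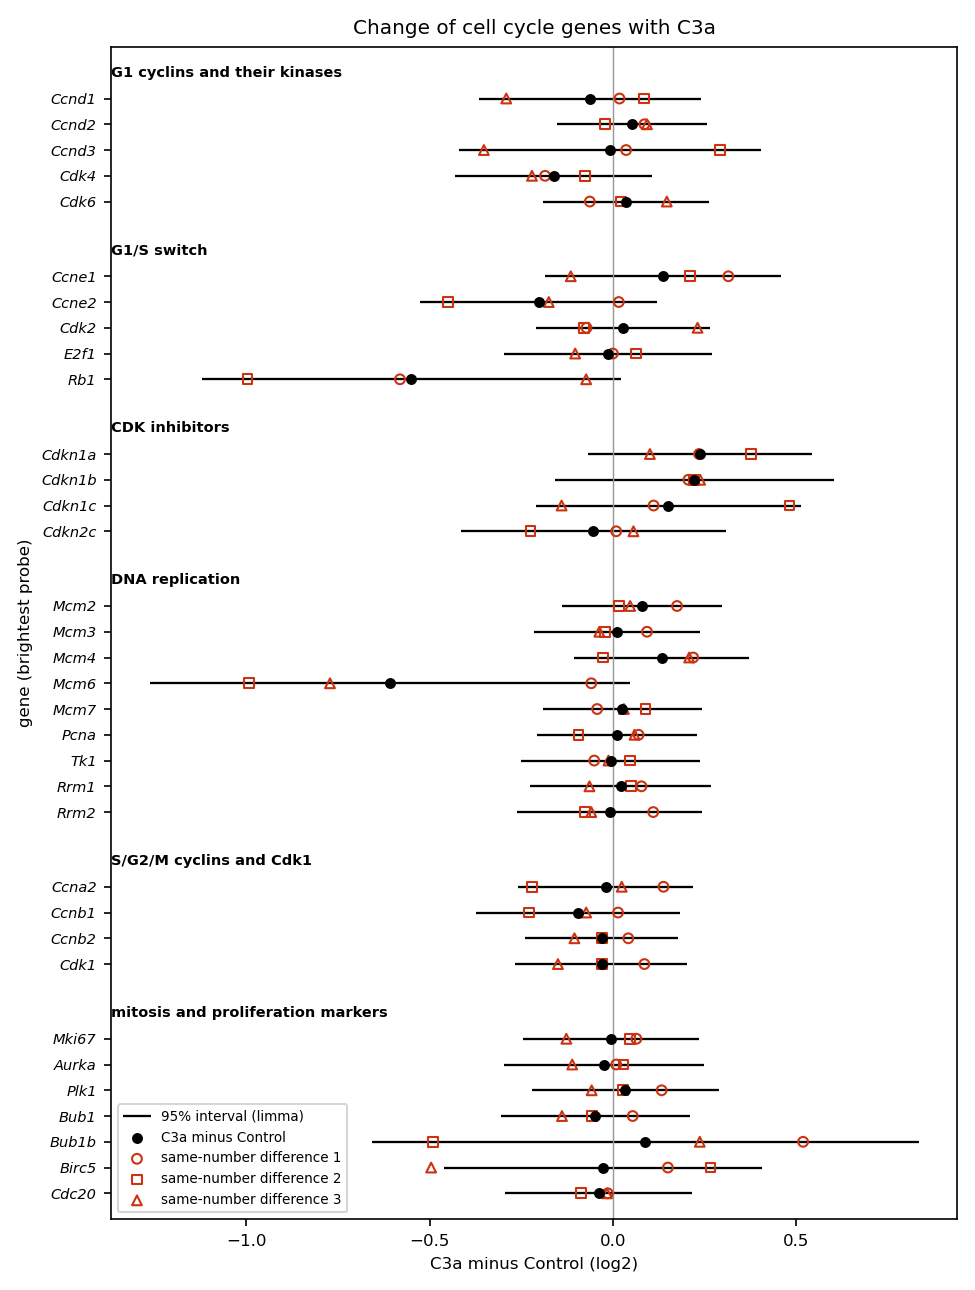
Change with C3a of the 34 cell cycle genes tested, by role; the x axis is C3a minus Control in log2 units, black points are differences of means with 95% intervals from limma (n = 3 per group), and open symbols are the differences between arrays with the same replicate number. All 34 intervals cross 0; those of Rb1, Mcm6 and Bub1b are the widest.

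Proximal promoters of replication and later genes are shown before their values, because E2F elements are known from genes of DNA synthesis, and the CCAAT box with the cell cycle homology region from genes of G2 and M phase. Promoter sequence from RefSeq (GRCr8) was matched for 27 of the 37 genes, and the 250 bases before the transcript start were searched on both strands. The CCAAT box (CCAAT) was present in 17 of 27, against 34% of 33469 promoters of the same length. The cell cycle homology region, or CHR (TTTGAA), was present in 7 of 27 against 16.2%. An E2F-type element (TTTCCCGC, TTTGGCGC, TTTGCCGC or TTTCGCGC) was present in 5 of 27 against 1.73%. The 27 genes comprised 11 of S, G2 and M phase and mitosis (later genes), 8 of replication and 8 others. CCAAT occurred in 8 later, 6 replication and 3 other genes, so it did not set later genes apart from replication genes. CHR occurred in 6 later genes, 1 replication gene and 0 others. CCAAT and CHR occurred together in 6 genes, against 5.87% of all promoters, and all 6 were later genes. E2F-type letters occurred in 4 of 8 replication genes, 1 of 11 later genes and 0 of 8 others. These are matches of letters, not measured binding. In the sequences below, printed 5′ to 3′ along the gene, capitals mark these elements in either orientation (ATTGG is CCAAT read on the other strand).
Ccnb2, chr8:79981659-79981908, minus strand: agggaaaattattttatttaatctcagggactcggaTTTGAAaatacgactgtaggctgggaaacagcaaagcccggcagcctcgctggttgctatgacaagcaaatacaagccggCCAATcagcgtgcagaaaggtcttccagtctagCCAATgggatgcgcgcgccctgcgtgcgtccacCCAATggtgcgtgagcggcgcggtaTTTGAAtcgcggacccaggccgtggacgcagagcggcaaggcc
Cdk1, chr20:19265043-19265292, plus strand: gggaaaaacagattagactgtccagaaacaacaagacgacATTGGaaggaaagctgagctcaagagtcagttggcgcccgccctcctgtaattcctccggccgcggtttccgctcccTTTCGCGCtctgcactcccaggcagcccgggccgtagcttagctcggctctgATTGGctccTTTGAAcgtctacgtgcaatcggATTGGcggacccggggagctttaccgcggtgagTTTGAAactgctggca
Cdc20, chr5:137255800-137256049, minus strand: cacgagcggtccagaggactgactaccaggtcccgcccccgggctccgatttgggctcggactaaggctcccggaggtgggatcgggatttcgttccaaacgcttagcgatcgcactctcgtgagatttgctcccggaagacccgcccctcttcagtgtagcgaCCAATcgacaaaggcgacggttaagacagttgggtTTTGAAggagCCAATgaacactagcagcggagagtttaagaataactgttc
Mcm7, chr12:22163179-22163428, minus strand: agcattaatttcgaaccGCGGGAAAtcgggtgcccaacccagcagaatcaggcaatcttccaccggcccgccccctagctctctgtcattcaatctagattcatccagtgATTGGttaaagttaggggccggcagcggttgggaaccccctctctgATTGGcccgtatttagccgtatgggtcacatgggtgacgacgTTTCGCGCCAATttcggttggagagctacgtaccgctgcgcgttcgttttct
Mcm2, chr4:122918095-122918344, minus strand: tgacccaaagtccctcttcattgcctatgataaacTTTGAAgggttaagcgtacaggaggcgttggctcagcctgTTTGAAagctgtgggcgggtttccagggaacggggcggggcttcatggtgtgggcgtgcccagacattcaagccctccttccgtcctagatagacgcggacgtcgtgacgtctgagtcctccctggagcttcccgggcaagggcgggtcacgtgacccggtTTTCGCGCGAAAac

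The 3 later genes printed all hold CCAAT and CHR; Ccnb1, Aurka, Plk1, Bub1 and Bub1b, also matched, have no CHR letters in this window. Ccnb2 has CCAAT at -134, -101 and -68 from the start and CHR at -214 and -43. Cdk1 has CCAAT at -210, -81 and -49 on the opposite strand, CHR at -72 and -16, and an E2F-type element at -133. Cdc20 has CHR at -51 between CCAAT at -86 and -41. Of the replication genes, Mcm7 has E2F-type letters at -233 and -52, the latter overlapping the CCAAT at -45, and Mcm2 has a pair of overlapping E2F-type matches on opposite strands at -14 and -10 with CHR at -215 and -175.

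The D-type cyclins, which link outside signals to entry into G1, did not separate the groups. Ccnd1 (cyclin D1) read 2.26, 2.12 and 2.17 on Control replicates 1 to 3 and 2.28, 2.21 and 1.88 on the C3a arrays. The groups overlapped, with C3a replicate 3 the lowest array, and the change was -0.06 ± 0.13. Ccnd2 (cyclin D2) read 3.24, 3.27 and 3.24 in Control and 3.32, 3.25 and 3.33 with C3a. Only C3a replicate 2 fell inside the Control range, and the change was 0.05 ± 0.09. Ccnd3 (cyclin D3) read 3.01, 2.60 and 2.84 in Control and 3.04, 2.89 and 2.49 with C3a, so that C3a held both the highest and the lowest array (change -0.008 ± 0.18).

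Cdk4, a kinase partner of the D-type cyclins, read 2.31, 2.38 and 2.21 in Control and 2.13, 2.30 and 1.99 with C3a. Each C3a array lay below the Control array of the same number, although the groups overlapped, and the change of -0.16 ± 0.11 did not pass (limma adjusted p = 0.745). Cdk6, the alternative partner, read -1.27, -1.20 and -1.31 in Control and -1.33, -1.18 and -1.17 with C3a. C3a replicate 1 lay just below the Control range and C3a replicates 2 and 3 just above it, for a change of 0.04 ± 0.10.

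At the G1/S switch, Ccne1 (cyclin E1) read 0.33, 0.14 and 0.33 in Control and 0.65, 0.35 and 0.22 with C3a. C3a replicates 1 and 2 were the highest arrays and C3a replicate 3 lay within the Control range, for a change of 0.14 ± 0.14. Its paralogue Ccne2 had the opposite sign, -0.20 ± 0.14, with C3a replicate 1 above all Control arrays and C3a replicates 2 and 3 below them. Cdk2, the kinase of cyclin E, read 0.25, 0.29 and 0.13 in Control and 0.17, 0.21 and 0.36 with C3a, which overlapped (change 0.03 ± 0.10). E2f1, the activator of S-phase genes, read 0.41, 0.11 and 0.35 in Control and 0.41, 0.18 and 0.25 with C3a. The arrays of one number were closer to each other than the range within either group, and the change was -0.01 ± 0.12.

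Rb1, the retinoblastoma protein that holds E2F in check, had the smallest unadjusted p of the list at the brightest probes without the replicate block. Its levels were -0.19, 0.56 and -0.35 in Control and -0.77, -0.44 and -0.42 with C3a. All 3 C3a arrays lay below all 3 Control arrays (exact two-sided permutation p = 0.1, the smallest that 3 against 3 allows), and 1 of 34 genes was arranged in this way, against 4.89% of all genes. Control replicate 2 was far above the others. The change was -0.55 ± 0.24 (95% interval -1.12 to 0.02; limma unadjusted p = 0.0568, adjusted p = 0.745), and with the replicate block the unadjusted p was 0.0272 and the adjusted p 0.311. Without Control replicate 2 the change was -0.27.

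The CIP/KIP inhibitors, which bind and block cyclin-CDK complexes, were the role with the most positive median change, 0.19 over 4 inhibitors including the INK4 member Cdkn2c. The mean over the 3 CIP/KIP genes was 0.20 and turned to -0.12 without normalization between arrays, where the median of all genes moved to -0.29. Cdkn1a (p21) read 4.66, 4.30 and 4.64 in Control and 4.89, 4.68 and 4.74 with C3a. The C3a arrays all lay above the Control arrays, and 2 of 34 genes were arranged in this way, against 8.09% of all genes. The change was 0.24 ± 0.13 (95% interval -0.07 to 0.54; limma adjusted p = 0.745). Cdkn1b (p27) read 3.34, 2.97 and 3.38 in Control and 3.55, 3.19 and 3.61 with C3a. The groups overlapped through C3a replicate 2, but the 3 differences at equal number were nearly alike, at 0.21, 0.22 and 0.24, and the change was 0.22 ± 0.16 (limma adjusted p = 0.746; with the replicate block unadjusted p = 0.0453 and adjusted p = 0.359).

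Cdkn1c (p57) read 4.71, 4.29 and 4.59 in Control and 4.82, 4.77 and 4.45 with C3a, with the groups overlapping and a change of 0.15 ± 0.15. Control replicate 2 was the lowest array for all 3 CIP/KIP genes, as it was for 38.4% of all genes, whose median there was -0.06 relative to each gene's mean over the 6 arrays. Their mean change was 0.18, 0.36 and 0.07 at numbers 1, 2 and 3, and without Control replicate 2 the change was 0.08 for the mean, 0.12 for Cdkn1a and 0.09 for Cdkn1b. The 12 cardiomyocyte markers, all tested, also had their lowest array median at Control replicate 2. Their median change was 0.16, and their summed linear level was 5777 to 7491 in Control and 7192 to 8212 with C3a. Changes lay above 0 for 9 of 12, while Actn2, Ryr2 and Nppa had changes of -0.30, -0.11 and -0.09. The 5 endothelial and 4 macrophage markers tested had their lowest array median at Control replicate 2 too. The fibroblast and smooth muscle markers had theirs at C3a replicate 2. The part of these cell types in the inhibitor values was not tested. The INK4 member Cdkn2c (p18) was dim, well above background on 5 of 6 arrays, and read -2.47, -2.75 and -2.69 in Control and -2.46, -2.97 and -2.64 with C3a, overlapping and with a change of -0.05 ± 0.15.

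The cyclins set against the inhibitors gave a within-array balance. The mean change of the 8 cyclins was -0.03 and that of the 4 inhibitors 0.14, a difference of -0.17, with -0.06, -0.26 and -0.19 at numbers 1, 2 and 3 (SD 0.10, n = 3). Relative to the mean over the 6 arrays, the balance was -0.02, 0.26 and 0.01 in Control and -0.08, 0.001 and -0.18 with C3a, so that the groups overlapped at C3a replicate 2. Without Control replicate 2 the difference was -0.08.

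**Figure D2:**
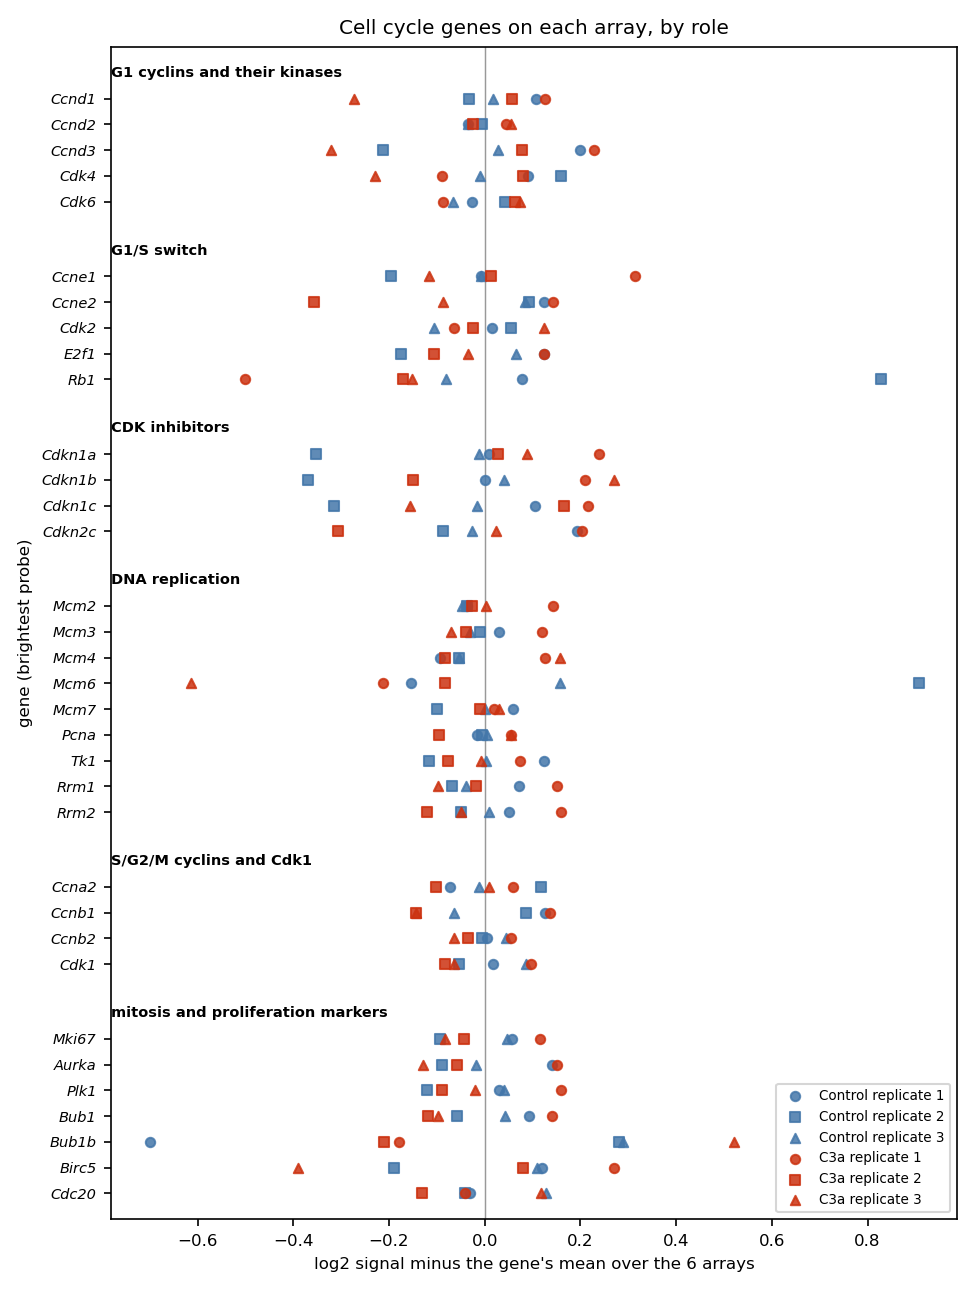
Level of the cell cycle genes on each array, as log2 signal minus that gene's mean over the 6 arrays, with Control and C3a replicates marked separately. The replication genes other than Mcm6 stay close to their own mean; Control replicate 2 stands high for Rb1 and Mcm6 and low for the CIP/KIP inhibitors.

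The DNA replication genes other than Mcm6 varied little between arrays. Pcna, the sliding clamp of DNA polymerase, read 2.64, 2.65 and 2.66 in Control and 2.71, 2.56 and 2.71 with C3a. The Control arrays lay between the C3a arrays, and the change was 0.01 ± 0.09, with a 95% interval of 0.87-fold to 1.17-fold. Mcm2, a subunit of the replicative helicase, read 3.23, 3.23 and 3.22 in Control and 3.41, 3.24 and 3.27 with C3a. All C3a arrays lay above the Control arrays, with C3a replicate 1 farthest from them, and the change was 0.08 ± 0.09 (limma adjusted p = 0.806). Its dimmer second probe had a change of -0.20.

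Mcm6, another helicase subunit, had the most negative change of the list. It was dim, well above background on 5 of 6 arrays, and read -2.76, -1.70 and -2.45 in Control and -2.82, -2.69 and -3.22 with C3a. The groups overlapped, with Control replicate 2 well above the rest, and each C3a array lay below the Control array of its number. The change was -0.61 ± 0.28 (limma unadjusted p = 0.0643, adjusted p = 0.745; with the replicate block unadjusted p = 0.0219, adjusted p = 0.296). It was -0.31 without Control replicate 2 and -0.19 with the normexp background correction. The other measured helicase subunits were Mcm3, Mcm4 and Mcm7, with changes of 0.01, 0.13 and 0.03.

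Tk1, the thymidine kinase of the salvage pathway, read 1.50, 1.26 and 1.38 in Control and 1.45, 1.30 and 1.37 with C3a, and the C3a arrays lay inside the Control range (change -0.006 ± 0.10). Rrm2, the regulated subunit of ribonucleotide reductase, read 3.76, 3.66 and 3.72 in Control and 3.87, 3.59 and 3.66 with C3a. The C3a arrays spread to both sides of Control, for a change of -0.009 ± 0.11, and the partner subunit Rrm1 had a change of 0.02 ± 0.11. Changes lay above 0 for 6 of the 9 replication genes, with a median of 0.01.

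The cyclins of the later phases and Cdk1 all had changes just below 0, between -0.10 and -0.02. Ccna2 (cyclin A2) read 0.28, 0.47 and 0.34 in Control and 0.41, 0.25 and 0.36 with C3a, with Control replicate 2 highest and C3a replicate 2 lowest (change -0.02 ± 0.10). Ccnb1 (cyclin B1) read -1.19, -1.23 and -1.38 in Control and -1.18, -1.46 and -1.46 with C3a. C3a replicate 1 was the highest array and the other C3a arrays were the lowest, for a change of -0.10 ± 0.12. Cdk1, the mitotic kinase, read 2.48, 2.41 and 2.55 in Control and 2.56, 2.38 and 2.40 with C3a, again with C3a holding both ends, and its change was -0.03 ± 0.10 (95% interval -0.27 to 0.20). Ccnb2 (cyclin B2) had a change of -0.03 ± 0.09.

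Among the mitotic genes, Mki67, the gene of the Ki-67 proliferation antigen, read 1.35, 1.20 and 1.34 in Control and 1.41, 1.25 and 1.21 with C3a. The groups overlapped, the change was -0.005 ± 0.10, and the 95% interval was 0.84-fold to 1.18-fold. Birc5 (survivin), a member of the chromosomal passenger complex, read -0.36, -0.67 and -0.37 in Control and -0.21, -0.40 and -0.87 with C3a. It spread more, with C3a replicate 1 highest and C3a replicate 3 lowest, and its change was -0.03 ± 0.18 (95% interval -0.46 to 0.41). Aurkb, the kinase of the same complex, read -3.50, -2.87 and -3.62 in Control and -3.65, -3.56 and -4.12 with C3a. Control replicate 2 was its highest array and C3a replicate 3 its lowest, and too few arrays were well above background for a test.

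The remaining mitotic genes had changes of -0.02 for Aurka, a spindle pole kinase, 0.03 for Plk1, the polo-like kinase, -0.05 for the checkpoint kinase Bub1 and -0.04 for Cdc20, the activator of the anaphase-promoting complex. Cdc20 was lower at each of the 3 replicate numbers; 4 of 34 genes were (Cdk4, Rb1, Mcm6 and Cdc20), against 15.2% of all genes, and 3 of 34 were higher at each number (Cdkn1a, Cdkn1b and Mcm2), against 23.4%. Bub1b, a spindle checkpoint gene well above background on 5 of 6 arrays, had the widest interval of the list, with a change of 0.09 ± 0.32. Over the 20 genes of replication, later phases and mitosis together, 8 changes lay above 0 and 12 below, and 18 of 20 intervals lay within 0.5 of 0.

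The arrays with the extreme values were counted for the list and for all genes. C3a replicate 1 was the highest array for 19 of 34 genes, against 33% of all genes, while Control replicate 2, C3a replicate 2 and C3a replicate 3 were each the lowest for 9 of 34, against 38.4%, 7.51% and 26.1%. For the 20 genes of replication, later phases and mitosis, C3a replicate 1 was highest for 12 and lowest for 0, and Control replicate 2, C3a replicate 2 and C3a replicate 3 were lowest for 4, 7 and 6. At replicate numbers 1, 2 and 3 the median change of the list was 0.06, -0.02 and -0.06, and that of all genes 0.04, 0.09 and -0.02. Summed levels of the fibroblast markers, cells that can divide in such cultures, were 108.8 to 123 in Control and 106.9 to 125.2 with C3a, over 11 of 11 markers with a median change of -0.05. Such linear sums follow the brightest markers, here Col1a2 and Col1a1. Changes lay above 0 for 3 of 11 fibroblast markers, against 60.5% of all genes. Lum, well above background on 5 of 6 arrays, had a change of -0.54 (limma unadjusted p = 0.0367, adjusted p = 0.745, block unadjusted p = 0.00517). Summed levels of 5 of 8 endothelial markers were 33.1 to 45.9 in Control and 42.2 to 53.4 with C3a (median change 0.14). Of these 5 markers, 4 had changes above 0 and Tek had a change of -0.23. Summed levels of 6 of 6 smooth muscle markers were 33.9 to 39.5 in Control and 35.2 to 37.6 with C3a. Those of 4 of 8 macrophage markers were 5.6 to 7.1 and 5.6 to 6.2 (median change 0.16). This sum is mostly Lyz2, with a mean level of 2.36 against -0.61, -2.42 and -3.58 for Cd68, Itgam and Csf1r. Of the macrophage markers, Lyz2 and Cd68 were well above background on all 6 arrays, Csf1r and Itgam on 5, and Cd163 and Mrc1 on 0. Itgam had a change of 0.63 (limma unadjusted p = 0.00704, adjusted p = 0.745) and Csf1r of 0.41 (adjusted p = 0.745), while Cd68 and Lyz2 had changes of -0.16 and -0.09. The part of these cell types in the values of the list was not tested.

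**Figure D3:**
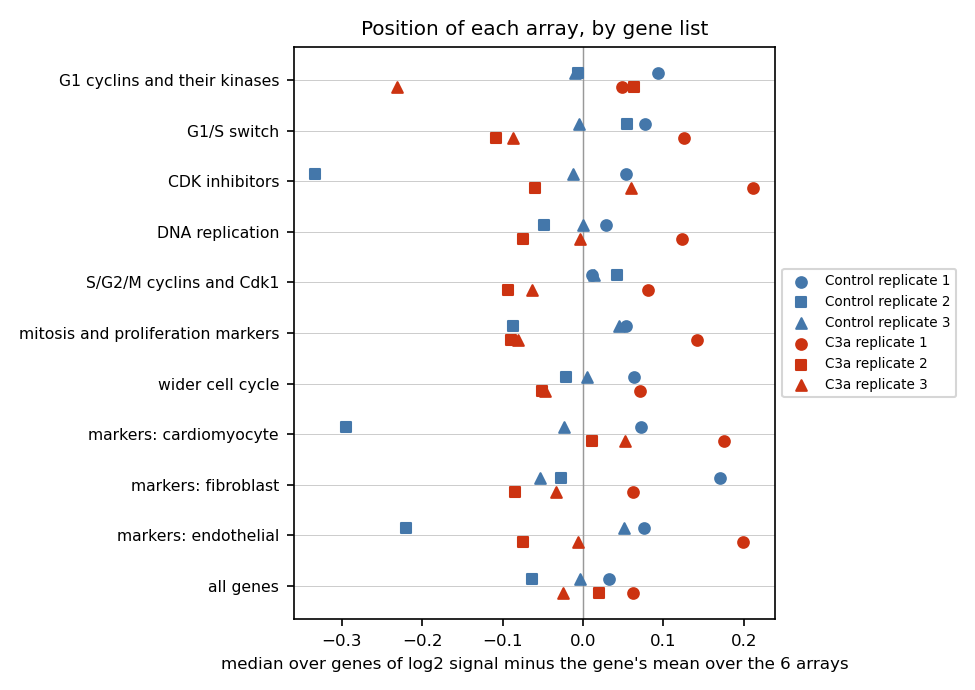
Median deviation of each role of the cell cycle list, of the wider cell cycle list, of marker lists and of all genes on each array, as log2 signal relative to each gene's mean over the 6 arrays. Every role except the G1 cyclins and their kinases is highest on C3a replicate 1 (replication 0.12, mitosis 0.14), as are all genes (0.06). The CDK inhibitors are lowest on Control replicate 2, as are all genes (-0.06).

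Precision followed brightness. The median SD between replicates was 0.11 for the list and 0.14 for all genes. With all genes cut into 4 equal bins by signal, from dimmest to brightest, it was 0.32, 0.13, 0.09 and 0.11 for the 4, 11, 10 and 9 cell cycle genes and 0.25, 0.15, 0.11 and 0.11 for all genes. Rb1 apart, the genes with the widest intervals (Mcm6 and Bub1b) were in the dimmest bin.

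**Figure D4:**
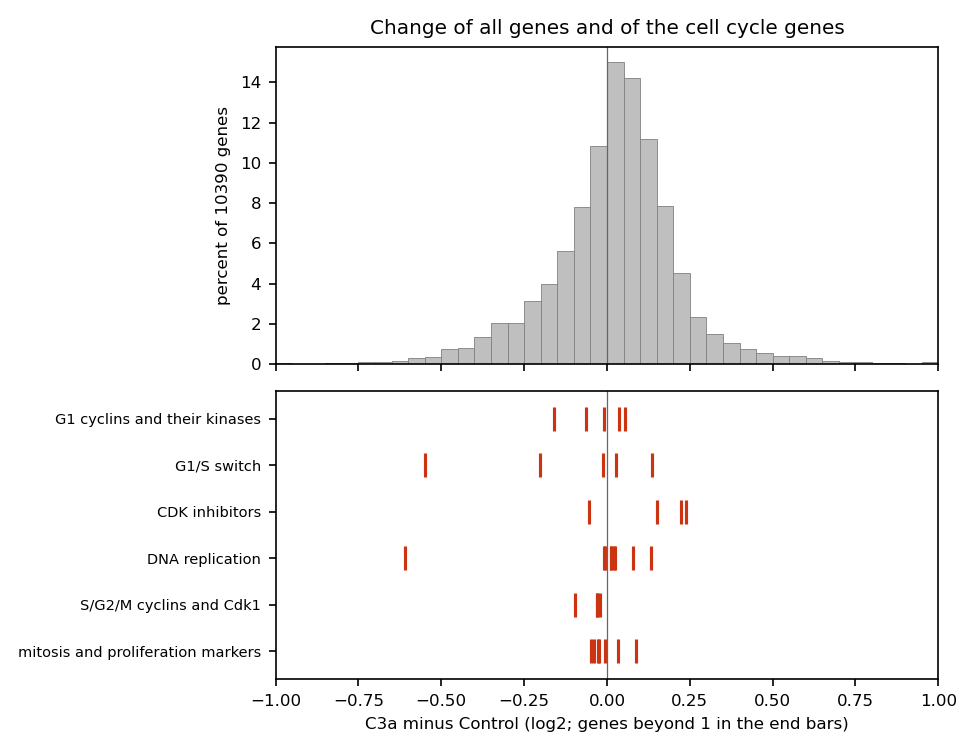
Distribution of the change with C3a (C3a minus Control, log2) over the 10390 genes tested, with the 34 cell cycle genes beside it. The cell cycle genes gather around their median of -0.007, and Mcm6 and Rb1 lie at -0.61 and -0.55.

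Different probes for the same gene did not always move alike, and 14 of the 34 genes had more than 1 tested probe. For Mcm3 the brightest probe had a change of 0.01 and a dimmer one 0.44 ± 0.13 (limma unadjusted p = 0.00994, adjusted p = 0.745). For Mcm4 the changes were 0.13, 0.10 and, on a dim probe above background on 5 of 6 arrays, 0.61 ± 0.21 (limma unadjusted p = 0.0209, adjusted p = 0.745). For Ccnb2 the second probe gave -0.33 ± 0.15, and for Mki67 the 4 probes ran from -0.30 to 0.001. The second probes of Cdkn1a and Cdkn1b gave -0.01 and 0.07, and that of Cdkn1c 0.24.

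A wider list of 103 further cell cycle genes covered replication, mitosis, the E2F and RB network, and inhibitors and checkpoints. Of these, 89 had a named probe and 76 were tested, with 0 called higher and 0 lower by limma, by limma with the block or by the methods' test at an adjusted p under 0.05. At an unadjusted p under 0.05, limma listed 1 higher (against 2.92% of all genes) and 1 lower (against 2.46%), and the methods' test 5 in either direction (against 4.94%). With the replicate block 2 were listed higher (against 5.78%) and 2 lower (against 6.06%). The median change was -0.02, against 0.04 for all genes, with 32 of 76 above 0, against 60.5%. All C3a arrays lay above all Control arrays for 2 of 76, against 8.09% of all genes, and below them for 5 of 76, against 4.89%. Cdkn2d (p19), an INK4 inhibitor, read 0.17, 0.13 and 0.07 in Control and 0.44, 0.28 and 0.45 with C3a, without overlap and with a change of 0.27 ± 0.10 (limma unadjusted p = 0.0278, adjusted p = 0.745). Pola2, a subunit of DNA polymerase alpha, read -2.94, -2.58 and -2.87 in Control and -3.46, -2.93 and -3.51 with C3a. Its groups overlapped through C3a replicate 2, it was well above background on 5 of 6 arrays, and its change was -0.50 ± 0.18 (limma unadjusted p = 0.0275, adjusted p = 0.745; with the replicate block 0.00318 and 0.22). Next by p were Incenp, a scaffold of the chromosomal passenger complex, and Mybl2, a transcription factor of late cell cycle genes. Incenp read -0.31, -0.39 and -0.40 in Control and -0.57, -0.50 and -0.65 with C3a, and Mybl2 -1.01, -1.20 and -1.06 in Control and -1.22, -1.34 and -1.31 with C3a. The change was -0.20 for each. For both, all C3a arrays lay below all Control arrays, and the limma adjusted p was 0.745. Named after their values were seen, Tpx2, a spindle assembly factor, and Ccnf (cyclin F) completed the 4 genes listed with the block, beside Cdkn2d and Pola2. Their changes were -0.45 ± 0.25 and 0.29 ± 0.19, with block unadjusted p = 0.00332 and 0.0189 and block adjusted p = 0.22 and 0.284 (limma).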

How the data were processed

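Expression was measured in NRVCs on 3 Control and 3 C3a one-colour Agilent arrays, grouped by condition and replicate number in the labels. The authors deposited the processed spot intensity written by Feature Extraction 11.5.1.1, with flags for spots above background and for outliers (other columns), as well as a table of log2 values; set against the scanner values, that table held log2 intensity minus the array's 75th percentile (median difference at most 0.0058). Control spots (4259 of 62976) and flagged outliers were left out and spots of a probe averaged. Log2 intensity minus the array's 75th percentile was tested for the 23438 probes that cleared background throughout the Control or the C3a arrays. Of these, 23425 cleared it throughout C3a and 17519 throughout Control. Mcm6, Cdkn2c and Bub1b entered through the C3a arrays, with 2 Control arrays above background. The test was two-sided and used lmFit and eBayes of limma 3.58.1 (R 4.3.3), with Benjamini-Hochberg adjustment over the 23438 probes and a threshold of 0.05. The methods' test is the variance test of 2 groups on the same values.

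The accession of 21109 probes (46.3%) was in the RefSeq table (GRCr8); the array design uses another build, so gene coordinates come only with the RefSeq promoters. A gene was represented by its brightest probe. Deviations from the group means of arrays with the same replicate number correlated over probes (r = 0.28, 0.32 and 0.31), so the numbers were taken as pairs. For different numbers r was -0.26 to -0.09. Centring on the group means pushes these values below 0, so they are not a separate sign of pairing. The numbers also mark slide positions, and the source of the pairing cannot be told apart. The limma script was tested on simulated data.

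Members and gene lists were chosen with earlier results of these data known. Values on every array are given for the main cyclins, kinases and inhibitors, for representative replication and mitosis genes, and for members with non-overlapping groups or an unadjusted p under 0.05 with or without the block; of the wider list, the 4 genes with the smallest unadjusted p without the block are named. Alternatives were other normalizations, background corrections, filters, probe rules, tests and the omission of each array. Precision is limited by the number of arrays. Figures were drawn with matplotlib 3.10.9.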

Additional observations from a re-analysis of the deposited data

How the results depend on the processing

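The count of cell cycle genes passing adjustment was 0 under every alternative run. Without normalization between arrays the median of all genes moved to -0.29 and that of the cell cycle genes to -0.33. This setting only leaves out a constant per array, so the change of every gene moved down by the same amount. By that arithmetic the list had to stay at -0.04 relative to all genes. Without normalization 4 probes of the whole array passed on the lower side. Groups did not overlap for 9 cell cycle genes in place of 3 (all genes 9.87% in place of 13%). The sign changed for 15 of 34, the 3 CIP/KIP inhibitors among them (Cdkn1a -0.09, Cdkn1b -0.10, Cdkn1c -0.17). With no filter on dim probes the list lay above all genes, by 0.03. With quantile normalization 1 cell cycle gene had groups that did not overlap (all genes 13.3%). The replicate block, used because the numbers pair the arrays, left the adjusted counts at 0 and raised the probes with an unadjusted p under 0.05 to 1816 higher and 1371 lower. Leaving out 1 array at a time gave 4 to 10 genes whose groups did not overlap, against 19% to 29.8% of all genes. Smaller groups separate more often. The median change was then -0.05 to 0.03, and the cyclin minus inhibitor difference -0.22 to -0.08. Under the other settings that difference was -0.23 to -0.13. A constant per array, the block or the choice of test cannot alter it. Settings that changed only these left it at -0.17 by arithmetic. The direction held under all settings for 7 of 34 genes (Bub1, Ccnb1, Ccnb2, Ccne2, Cdk4, Mcm6 and Rb1), all with a change below 0. The 15 genes with a change above 0 all turned negative without normalization between arrays, so no gene above 0 could hold. For Cdkn1a, Cdkn1b, Cdkn1c, Mcm4 and Ccne1 the sign changed under that setting alone. The filter on all 6 arrays left out Cdkn2c, Mcm6 and Bub1b. The normexp correction used the median spot signal. The cause of the intensity differences between arrays, and of the shifts under the other settings, was not tested. For dim genes, signal close to background limits what could be detected.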
